A study of Mus musculus with 4 samples.

Results

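Genes that copy DNA and supply its building blocks were followed in the spleens of UVB-exposed mice. The set holds 49 genes, chosen by name for their step in replication, from origin recognition to deoxynucleotide synthesis. Earlier results of these data were known when the set was chosen. All 49 were found by their GRCm38 Ensembl identifier among the 25509 gene rows of the deposited count table, and all 49 passed the filter on low counts that left 13532 genes to test. Transcripts were measured by RNA sequencing of splenocytes in 4 libraries. Of these, 2 came from wild-type spleens and 2 from spleens of Trim21-/- mice, here termed knockout. Trim21 encodes a ubiquitin ligase that also binds antibodies inside cells. All mice were 8 weeks old, shaved on the back and given UVB (100 mJ/cm2). Exposure lasted 1 or 3 weeks, which the labels do not assign to single libraries, and they do not give the strain, the allele or whether a library is 1 mouse. Unexposed mice were not analysed here, so each comparison is of genotypes under UVB.

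Before a cell divides, the origin recognition complex (ORC) marks start sites on DNA, and Cdc6 and Cdt1 load the ring-shaped MCM helicase there. At the start of S phase a kinase and several loading factors turn this helicase on by adding Cdc45 and the GINS complex, and primase, polymerases, the sliding clamp PCNA and ligase then copy both strands. Most of these genes are switched on by E2F transcription factors as a cell enters the cycle. Resting B and T cells, the bulk of a healthy spleen, replicate little DNA, whereas germinal centres and the red cell and granulocyte precursors of the mouse spleen do replicate it.

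Since E2F control is what most of these genes are known to share, their promoters are shown first. RefSeq (GRCm38.p6) gave 50 promoter windows for 41 of the 49 genes, each from 250 bases before a transcription start to 50 after it. The E2F-type letters searched were TTTCCCGC, TTTGGCGC, TTTCGCGC and TTTGCCGC on either strand, and matches may overlap each other. The next sequences are shown because they compare promoters of genes that rose in the knockout (Orc1, Mcm6 and Rrm2) with promoters of genes that did not pass the test (Orc3 and Pold1). Each is written 5′ to 3′ along the gene's strand, with E2F-type letters in capitals.
Orc1 (chr4:108579204-108579503, plus strand): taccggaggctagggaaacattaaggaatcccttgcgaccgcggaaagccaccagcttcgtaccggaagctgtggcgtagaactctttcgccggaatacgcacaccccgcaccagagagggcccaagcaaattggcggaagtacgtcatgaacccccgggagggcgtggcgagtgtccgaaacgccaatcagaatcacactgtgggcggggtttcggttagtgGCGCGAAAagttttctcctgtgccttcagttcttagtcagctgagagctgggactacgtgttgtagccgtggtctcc
Mcm6 (chr1:128359656-128359955, minus strand): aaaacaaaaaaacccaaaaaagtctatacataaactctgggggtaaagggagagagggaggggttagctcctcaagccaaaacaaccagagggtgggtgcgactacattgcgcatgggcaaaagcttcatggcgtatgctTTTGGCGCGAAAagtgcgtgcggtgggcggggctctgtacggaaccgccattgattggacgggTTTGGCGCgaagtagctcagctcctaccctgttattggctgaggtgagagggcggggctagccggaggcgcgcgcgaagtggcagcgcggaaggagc
Orc3 (chr4:34614893-34615192, minus strand): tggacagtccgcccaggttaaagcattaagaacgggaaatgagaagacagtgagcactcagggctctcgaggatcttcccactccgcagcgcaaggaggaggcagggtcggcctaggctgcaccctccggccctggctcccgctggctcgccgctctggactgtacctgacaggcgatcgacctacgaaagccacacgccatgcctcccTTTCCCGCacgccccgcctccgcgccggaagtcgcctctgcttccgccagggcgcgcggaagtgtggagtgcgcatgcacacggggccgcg
Pold1 (chr7:44548766-44549065, minus strand): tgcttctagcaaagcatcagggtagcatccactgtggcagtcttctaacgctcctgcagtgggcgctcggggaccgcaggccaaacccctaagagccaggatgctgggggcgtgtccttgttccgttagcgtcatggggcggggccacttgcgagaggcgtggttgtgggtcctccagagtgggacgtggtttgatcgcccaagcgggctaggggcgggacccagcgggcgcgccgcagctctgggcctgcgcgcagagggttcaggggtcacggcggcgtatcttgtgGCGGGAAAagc
Rrm2 (chr12:24708004-24708303, plus strand): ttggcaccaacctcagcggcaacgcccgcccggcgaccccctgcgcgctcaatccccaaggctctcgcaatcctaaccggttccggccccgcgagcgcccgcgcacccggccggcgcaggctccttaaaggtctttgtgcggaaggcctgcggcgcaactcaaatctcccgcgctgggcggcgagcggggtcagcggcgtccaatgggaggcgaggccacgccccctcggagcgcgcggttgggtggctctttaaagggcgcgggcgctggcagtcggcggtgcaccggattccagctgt

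E2F-type letters were more frequent in these promoters than in promoters at large, and they occurred both in genes that rose and in genes that did not pass. They lay in 15 of 50 windows (30.0%), against 744 of 32851 RefSeq windows (2.26%) and 499 of 13265 windows of the genes tested (3.76%). Of the genes that passed as higher in the knockout, 9 of 24 with a window held them, and of those that did not pass, 6 of 17 did. Orc1 carried its match 27 bases before the start and Orc3 41 bases before it, although the former rose and the latter did not pass. Mcm6 had 3 matches, with left ends 110, 106 and 47 bases before the start, and Pold1 had 1 match 39 bases after it. Rrm2, the gene with the largest rise, had no match in its window. Other letters were searched too. CCAAT lay in 26 of 50 member windows (52.0%), 37.4% of all windows and 37.8% of windows of genes tested. CHR letters (TTTGAA or TTCGAA) lay in 10 of 50 (20.0%), 19.2% of all windows and 14.4% of windows of genes tested. GC box letters (GGGCGG) lay in 37 of 50 (74.0%), 35.7% of all windows and 59.7% of windows of genes tested. A match in these letters is a description of sequence and not a binding site.

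**Figure D1:**
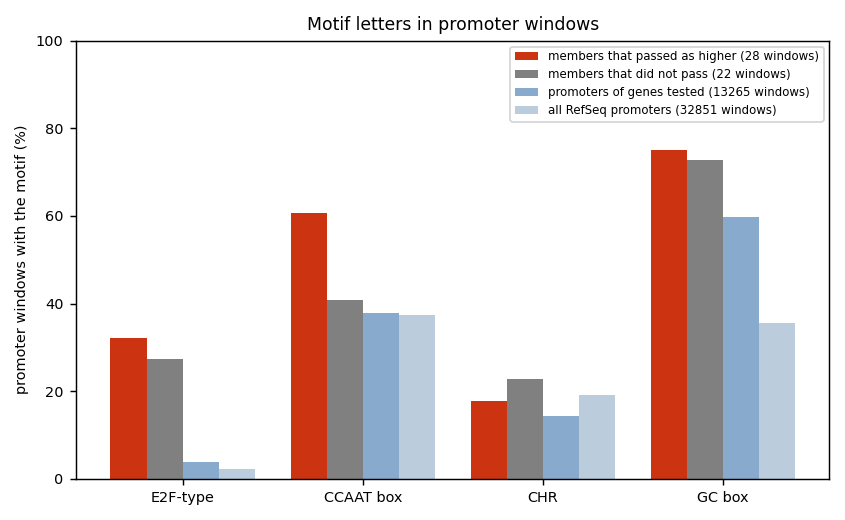
Share of promoter windows, in percent on the vertical axis, that hold each motif's letters on either strand, for members that passed as higher, members that did not pass, genes tested and all RefSeq windows. E2F-type letters are in 32.1% of windows of members that passed and 27.3% of windows of members that did not, against 2.26% of all windows.

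Trim21, the targeted gene, had 27.9 and 40.9 CPM (counts scaled to library size, with TMM factors) in wild-type libraries 1 and 2 and 13.4 and 20.4 CPM in knockout libraries 1 and 2 (log2 fold change -1.02 ± 0.42, SE; edgeR adjusted p 0.17). The labels do not give the deleted exons, so this level does not check the genotype. The libraries held 36173694 to 41924885 counts each. Haemoglobin genes took 8.25% and 4.03% of the wild-type counts and 30.7% and 14.9% of the knockout counts. Libraries 1 held the Y-linked transcripts Ddx3y, Eif2s3y, Kdm5d and Uty (109 and 108 CPM, summed) and libraries 2 none, so each genotype had a library of male and a library of female pattern. With no statement that libraries are separate mice, p-values measure only the spread between these samples.

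Replication and nucleotide supply genes were mostly higher in knockout spleens. Of the 49 genes, 28 rose, 0 fell and 21 did not pass (edgeR quasi-likelihood test, Benjamini-Hochberg adjusted p under 0.05 over all genes tested), where 5.90% of all genes tested rose and 0.392% fell. None of the 49 fell with DESeq2 or limma-voom either, and 0 lower values had an unadjusted p under 0.05. Their median log2 fold change was 1.88, with a range from -0.35 to 3.56, beside a median of -0.056 over all genes tested. In 45 of the 49, both knockout libraries lay above both wild-type libraries, as did 30.3% of all genes. In 0 of the 49 were both below (30.1% of all genes), and in the other 4 the genotypes overlapped. The summed level of the 49 genes was 1702 and 1613 CPM in wild-type libraries 1 and 2, and 7265 and 5724 CPM in knockout libraries 1 and 2. In bulk RNA, a larger number of replicating cells and more of these transcripts per cell cannot be told apart. Scaled by library totals alone, the median over all genes was -0.56 and that of the 49 genes 1.36, with 20 that rose. Over all genes, 798 rose and 53 fell with TMM scaling, against 782 (5.78%) and 1376 (10.2%) with library totals. The members that rose with TMM but not with library totals were Mcm2, Mcm3, Mcm4, Mcm6, Gins3, Ticrr, Prim1 and Rpa3.

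The number that rose depended on the libraries used. Without knockout library 1, 13 of the 49 genes rose (4.23% of all genes tested), and without knockout library 2, 24 did (6.30%). Leaving out wild-type library 1, 40 rose (16.4% of all genes), and leaving out library 2 of that genotype, 37 did (10.8%). DESeq2 called 37 as higher (11.6% of all genes), adding Cdt1, Gins2, Gins4, Dbf4, Rfc3, Rfc5, Pola2, Pole and Rpa2. A fit that lacks a library takes its spread from the other genotype's pair, and the lone library is assumed to vary like that pair. The common dispersion was 0.0872 from the knockout pair, 0.205 from the wild-type pair and 0.145 from both. The 13 that passed in this edgeR test and in each of 13 alternatives were Orc1, Orc6, Cdc6, Gmnn, Mcm10, Cdc45, Gins1, Fen1, Lig1, Rrm1, Rrm2, Tyms and Tk1. Orc3, Orc4, Rfc1 and Pold1 passed in none. The median of the 49 was 2.03 between libraries 1 and 1.84 between libraries 2.

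**Figure D2:**
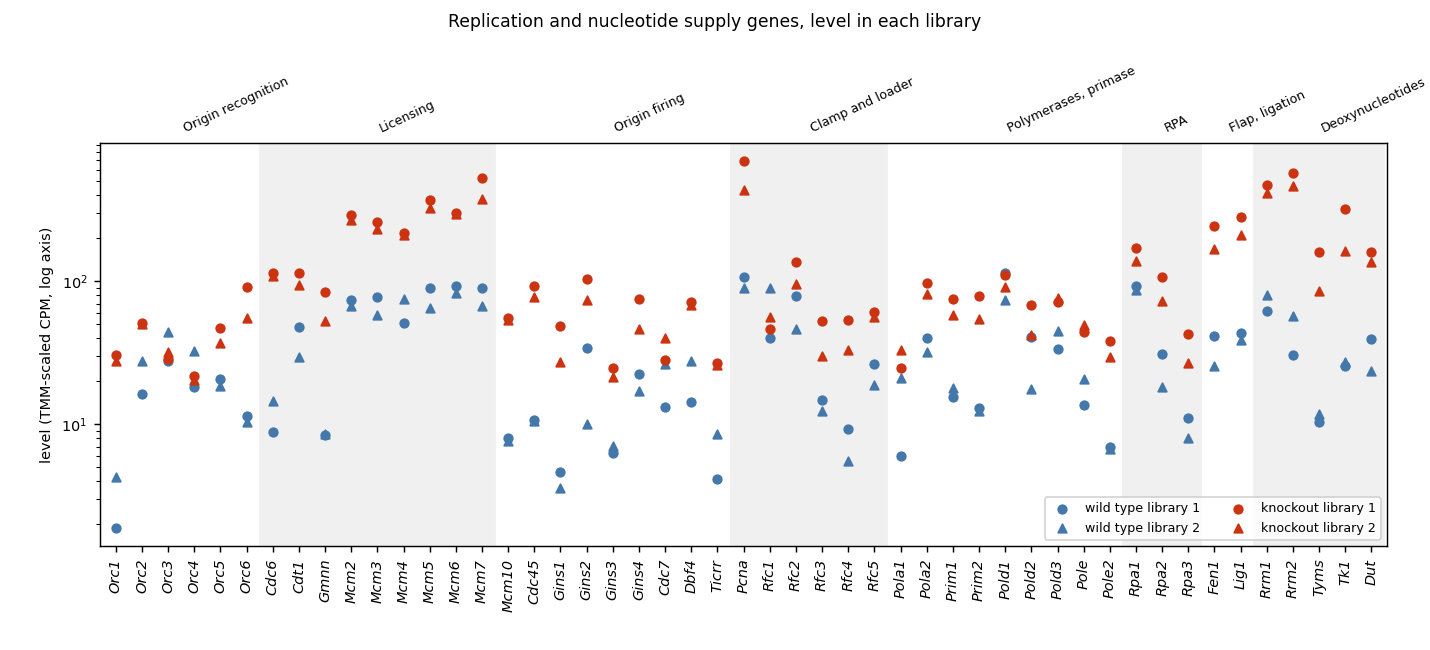
Level of each of the 49 genes in each library, in TMM-scaled CPM on a log axis, ordered by step of replication, with wild type in blue and knockout in red, circles for library 1 and triangles for library 2. Red points lie above blue points in 45 genes, and they overlap for Orc3, Orc4, Rfc1 and Pold1.

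Origin recognition genes divided by subunit. Orc1, the subunit that comes and goes with the cell cycle, had 1.90 and 4.30 CPM in wild type and 30.4 and 27.7 CPM in knockout. It rose 9.37-fold (log2 3.23 ± 0.51, SE; edgeR adjusted p 0.016). Orc6, the smallest subunit, had 11.5 and 10.4 CPM in wild type and 91.3 and 55.2 CPM in knockout, and rose 6.68-fold (adjusted p 0.016 by edgeR). Both knockout libraries were several times above wild type for each. The other 4 subunits did not pass. Orc2 (log2 1.21) and Orc5 (1.10) were above wild type in both knockout libraries, with an edgeR adjusted p of 0.12 each. Orc3, part of the core of the complex, had 27.7 and 44.1 CPM in wild type and 28.7 and 32.02 CPM in knockout. Orc4, another core subunit, had 18.1 and 32.4 CPM in wild type and 21.9 and 20.4 CPM in knockout. Wild-type library 2 was the highest for both, and the genotypes overlapped (log2 -0.24 ± 0.40 and -0.26 ± 0.42, edgeR adjusted p 0.72 each). Per kilobase of transcript, Orc1 was the least abundant subunit in both wild-type libraries, at 0.63 and 1.43 CPM per kb. In knockout Orc4 was the least abundant, at 5.38 and 5.01 CPM per kb, and Orc6 the most, at 70.9 and 42.9 CPM per kb. The count ratio of Orc1 to Orc3 within a library, which no scaling factor enters, was 0.068 and 0.098 in the wild-type libraries and 1.06 and 0.87 in the knockout libraries.

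Licensing genes rose in 8 of 9 cases. Cdc6, the ATPase that helps ORC load the helicase, had 8.89 and 14.6 CPM in wild type and 113.9 and 109.1 CPM in knockout, a 9.51-fold rise (log2 3.25 ± 0.43, SE; edgeR adjusted p 0.012). Gmnn encodes geminin, which binds Cdt1 and blocks relicensing in S and G2 phase. Its level was 8.44 and 8.58 CPM in wild type and 84.5 and 52.9 CPM in knockout, an 8.07-fold rise (adjusted p 0.013 by edgeR). Cdt1, the loader that geminin inhibits, had 47.7 and 29.4 CPM in wild type and 114.1 and 94.7 CPM in knockout. The genotypes did not overlap for Cdt1, but it did not pass (log2 1.44 ± 0.41, edgeR adjusted p 0.083). The ratio of Gmnn to Cdt1 counts was 0.18 and 0.29 in the wild-type libraries, against 0.74 and 0.56 in the knockout libraries.

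All 6 subunits of the MCM2-7 helicase rose, within a narrow band of log2 1.76 to 2.52. Mcm7 had 89.3 and 67.8 CPM in wild type and 527 and 374 CPM in knockout, the highest fold of the 6 at 5.73. Mcm6 had 93.1 and 82.3 CPM in wild type and 299.9 and 294 CPM in knockout, the lowest fold at 3.39. Mcm5 rose 4.50-fold, Mcm2 3.98-fold, Mcm3 3.65-fold and Mcm4 3.41-fold. The adjusted p ran from 0.021 for Mcm7 to 0.045 for Mcm4 (edgeR), and all 6 missed the threshold when knockout library 1 was left out. Without knockout library 2, and with library totals, Mcm2, Mcm3, Mcm4 and Mcm6 missed it as well, and with DESeq2 size factors Mcm4 did. Per kilobase, the ratio of the most to the least abundant subunit was 2.26 and 1.47 in the wild-type libraries, against 2.92 and 2.16 for knockout, so the 6 subunits of this ring stayed within 3-fold of each other in each library. Mcm4 was the least abundant in 3 of the 4 libraries, the exception being wild-type library 2, where Mcm3 was.

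Factors that fire the loaded origins rose in 5 of 9 cases, and all 9 had both knockout libraries above wild type. Cdc45, which joins the MCM ring to form the active helicase, had 10.8 and 10.5 CPM in wild type and 92.8 and 77.3 CPM in knockout, a 7.98-fold rise (log2 2.997 ± 0.39, SE; edgeR adjusted p 0.011). Mcm10, needed to activate the helicase, had 8.04 and 7.70 CPM in wild type and 55.4 and 53.4 CPM in knockout and rose 6.91-fold. Wild-type libraries lay close together for both genes. In the GINS complex, Gins1 rose 9.28-fold and Gins3 3.46-fold, whereas Gins4 (log2 1.61, adjusted p 0.068 by edgeR) and Gins2 (2.01, 0.090) did not pass. Gins2 differed between the wild-type libraries, with 34.1 and 10.1 CPM, against 104.1 and 73.9 CPM in knockout. Its exons share 67.3% of their length with the opposite-strand gene Gse1, and no source used here gives the strand setting of the counting. Orc2, Rfc2, Rfc4 and Rfc5 share 10.7% to 29.8% of their exon length with an opposite-strand gene, and without these and Gins2, 27 of 44 rose. Ticrr, which helps bring Cdc45 to origins, rose 4.18-fold (adjusted p 0.047 by edgeR) and missed the threshold without knockout library 1 or 2, with library totals, with DESeq2 size factors and without haemoglobin and mitochondrial genes.

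The kinase that triggers firing has a catalytic subunit, Cdc7, and an activator, Dbf4, and neither passed. Cdc7 had 13.3 and 26.5 CPM in wild type and 28.2 and 40.4 CPM in knockout (log2 0.79 ± 0.47, edgeR adjusted p 0.30). Dbf4 had 14.2 and 27.6 CPM in wild type and 72.2 and 68.5 CPM in knockout (log2 1.75 ± 0.44, edgeR adjusted p 0.063) and it passed when either wild-type library was left out, by DESeq2, by limma-voom and with no filter. Cdc7 passed as higher when wild-type library 2 was left out. Knockout libraries were the higher for both. The ratio of Dbf4 to Cdc7 counts was 1.07 and 1.04 in the wild-type libraries, against 2.56 and 1.69 for knockout.

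The sliding clamp rose, but its loader did so in 1 of 5 subunits. Pcna, the ring that holds polymerases on DNA, had 107 and 89.8 CPM in wild type and 691 and 433 CPM in knockout, a 5.72-fold rise (log2 2.52 ± 0.47, SE; edgeR adjusted p 0.025). Per kilobase it was the most abundant of the 49 genes in both genotypes, with a mean of 64.7 CPM per kb in wild type and 370.03 CPM per kb in knockout. Its annotated pseudogene Pcna-ps2 held 28 counts in each wild-type library and 144 and 90 in knockout, against at least 4196 for Pcna. Rfc4, a subunit of the clamp loader, had 9.32 and 5.54 CPM in wild type and 53.7 and 33.4 CPM in knockout and rose 5.86-fold. Rfc3 (log2 1.61), Rfc5 (1.38) and Rfc2 (0.89) had edgeR adjusted p of 0.073, 0.079 and 0.22, with both knockout libraries above wild type. Rfc1, the large subunit of the loader, had 40.4 and 90.4 CPM in wild type and 46.3 and 56.6 CPM in knockout. Wild-type library 2 was the highest and library 1 the lowest for Rfc1 (log2 -0.35 ± 0.47, edgeR adjusted p 0.65), and its value was 0.35 without wild-type library 2.

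Polymerase genes varied by enzyme. Primase, which makes the RNA primers, rose in both subunits. Prim2 had 13.1 and 12.4 CPM in wild type and 78.5 and 54.8 CPM in knockout (5.23-fold; log2 2.39 ± 0.40, SE; edgeR adjusted p 0.018), and Prim1 rose 3.96-fold. The polymerase alpha subunits that extend those primers did not pass, Pola2 at log2 1.30 (adjusted p 0.084 by edgeR) and Pola1 at 1.09 (0.28). Pola1 had 5.98 and 21.1 CPM in wild type and 24.6 and 33.1 CPM in knockout, with library 2 the higher in each genotype. In polymerase epsilon, the leading-strand enzyme, Pole2 had 6.91 and 6.72 CPM in wild type and 38.6 and 29.7 CPM in knockout and rose 5.004-fold. Its catalytic subunit Pole was at log2 1.44 (adjusted p 0.078 by edgeR). Polymerase delta, the lagging-strand enzyme, had 0 of 3 subunits that passed by edgeR or limma-voom. Of these 3, 1 had an unadjusted edgeR p under 0.05, and 0 passed by DESeq2. Pold2 passed as higher when wild-type library 1 was left out. Pold1, its catalytic subunit, had 113.6 and 74.0 CPM in wild type and 110.01 and 91.7 CPM in knockout (log2 0.10 ± 0.40, edgeR adjusted p 0.88). The genotypes overlapped for Pold1, whose sign turned when scaled by library totals (-0.41), without wild-type library 2 (-0.17) and without knockout library 1 (-0.033). Pold2 and Pold3 were both at log2 0.91, with knockout above wild type and edgeR adjusted p of 0.28 and 0.17.

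Genes that coat single strands and join fragments had both knockout libraries above wild type. RPA covers unwound DNA with subunits encoded by Rpa1, Rpa2 and Rpa3. Rpa3 had 11.04 and 8.05 CPM in wild type and 42.8 and 26.9 CPM in knockout and rose 3.65-fold with an edgeR adjusted p of 0.0497, while Rpa2, at 3.67-fold, did not pass (0.052). Rpa2 had 30.8 and 18.2 CPM in wild type and 107.3 and 72.6 CPM in knockout, so the genotypes did not overlap. These values lie on either side of the threshold and are not shown to differ. Rpa1 had 93.1 and 86.6 CPM in wild type and 171.6 and 137.9 CPM in knockout (1.72-fold, edgeR adjusted p 0.21). Fen1, the nuclease that trims flaps between Okazaki fragments, had 41.3 and 25.4 CPM in wild type and 243 and 169 CPM in knockout, a 6.18-fold rise (adjusted p 0.018 by edgeR). Lig1, the ligase that seals them, had 43.6 and 38.9 CPM in wild type and 284 and 212 CPM in knockout, a 6.01-fold rise (adjusted p 0.015 by edgeR).

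Deoxynucleotide supply was the step with the highest median, 3.20, and 5 of 5 genes rose. Rrm2, the regulated small subunit of ribonucleotide reductase, had 30.5 and 57.0 CPM in wild type and 568 and 465 CPM in knockout, the largest rise of the 49 at 11.8-fold (log2 3.56 ± 0.51, SE; edgeR adjusted p 0.013). Tyms, thymidylate synthase, had 10.3 and 11.8 CPM in wild type and 160.3 and 85.7 CPM in knockout and rose 11.1-fold. Tk1, the S-phase thymidine kinase, had 25.8 and 27.1 CPM in wild type and 322 and 163 CPM in knockout and rose 9.18-fold. Knockout library 1 was about double knockout library 2 for Tyms and Tk1, and both exceeded wild type. Dut, the enzyme that removes dUTP, had 39.5 and 23.7 CPM in wild type and 160.9 and 137.6 CPM in knockout and rose 4.72-fold. Rrm1, the large reductase subunit, had 62.4 and 80.1 CPM in wild type and 470.2 and 412 CPM in knockout and rose 6.19-fold. Rrm1 (GRCm38 chromosome 7, 102441695 to 102469771, plus strand) ends 88.2 kb from Trim21, the targeted gene (102557921 to 102565486, minus strand). Of 21 genes tested within 1 Mb of Trim21 on either side, Rrm1 and Folr1 rose and Art2b fell.

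**Figure D3:**
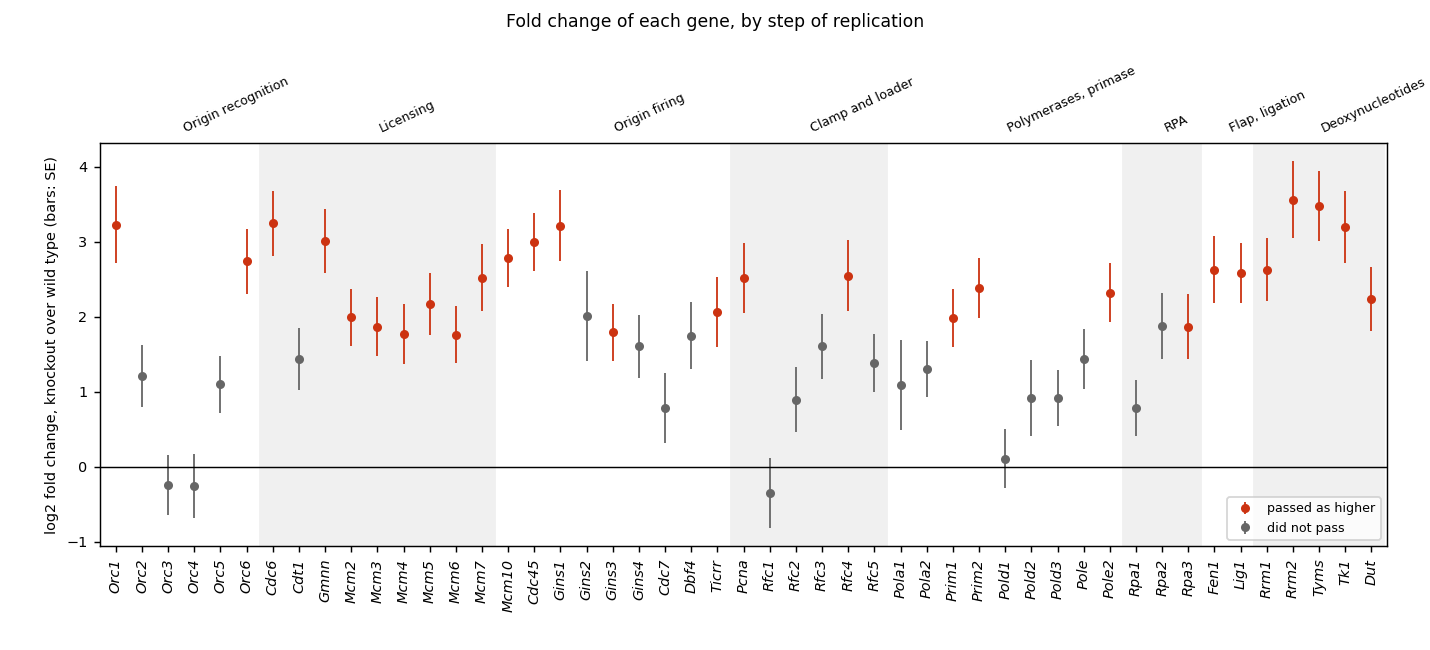
Log2 fold change of each of the 49 genes, knockout over wild type, on the vertical axis with its standard error as bars, ordered by step, with genes that passed as higher in red and the others in grey. Values run from -0.35 for Rfc1 to 3.56 for Rrm2, and all 5 deoxynucleotide genes are red.

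Within a library, the ratio of an S-phase nucleotide enzyme to its counterpart outside S phase was higher in both knockout libraries than in either wild-type library. These are ratios of counts, not divided by transcript length, so they compare libraries and not the levels of the genes. Rrm2b, the reductase subunit used outside S phase, had 11.4 and 41.0 CPM in wild type and 5.29 and 9.54 CPM in knockout (log2 -1.82, edgeR adjusted p 0.13). Rrm2 counts were 2.67 and 1.39 times those of Rrm2b in wild type and 107 and 48.7 times in knockout. Tk2, the mitochondrial thymidine kinase, had 77.97 and 64.1 CPM in wild type and 52.1 and 52.1 CPM in knockout (log2 -0.45, adjusted p 0.44 by edgeR). Tk1 counts were 0.33 and 0.42 of Tk2 counts in wild type and 6.18 and 3.14 times them in knockout. Both knockout libraries exceeded both wild-type libraries for each of the 8 ratios computed, which were chosen after the values were seen. With 2 libraries against 2, a two-sided exact permutation test cannot go below p = 0.333, the value of each.

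**Figure D4:**
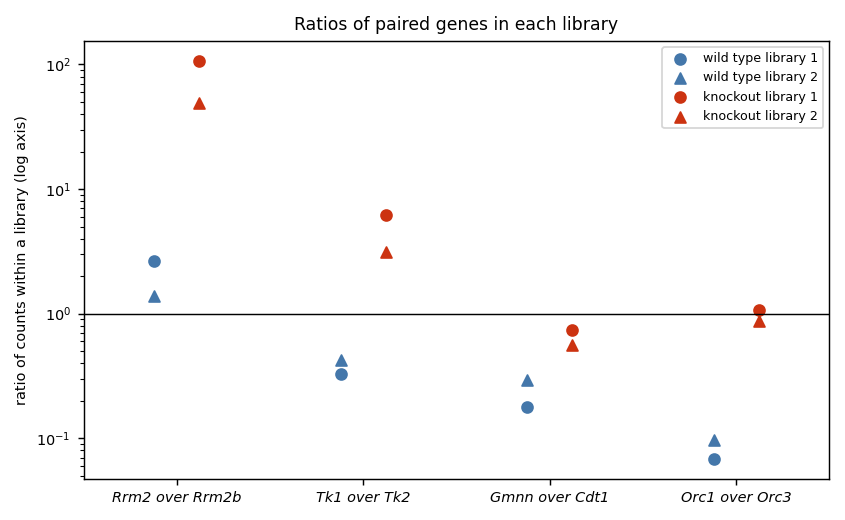
Ratio of the counts of paired genes within each library on a log axis, for Rrm2 over Rrm2b, Tk1 over Tk2, Orc1 over Orc3 and Gmnn over Cdt1, with wild type in blue and knockout in red. Knockout ratios lie above wild-type ratios in each pair, most widely for Rrm2 over Rrm2b (107 and 48.7 against 2.67 and 1.39).

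Other genes of the pathway were taken from 8 lists. Of their 154 genes tested, 45 rose and 0 fell by edgeR, where 5.90% of all genes tested rose and 0.392% fell. By limma-voom 0 fell (0.495% of all genes). By DESeq2 4 fell, Rrm2b, Ccnd1, Ccnd2 and Atm (6.58% of all genes). Under library totals 5 fell, those and Rev3l (10.2% of all genes). Of 30 other fork factors, 10 rose and 0 fell, with a median of 1.40. Tipin, which keeps the fork intact with Timeless, rose by 2.78 on the log2 scale from 17.4 and 19.1 to 140.7 and 110.3 CPM. Chaf1a, of the chaperone that places histones on new DNA, rose by 2.62, and Dscc1, of an alternative clamp loader, by 2.73 (edgeR adjusted p 0.013 to 0.015). The count became 17 when wild-type library 1 was left out, 18 when wild-type library 2 was, and 17 by DESeq2. Mitosis genes, which act after replication, rose in 18 of 22 cases with a median of 2.77, among them Aurka (log2 3.58), Ube2c (4.13) and Birc5 (4.16).

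G1/S regulators rose in 13 of 32 cases, with a median of 1.205. Cdkn2c, a Cdk4 and Cdk6 inhibitor, rose by 3.11, Mybl2, a transcription factor of cycling cells, by 3.20 and Ccne1, the cyclin E1 gene, by 3.03 (edgeR adjusted p 0.011 to 0.012). Cyclin D genes differed in sign, which was noticed after their values were seen. Ccnd3 rose from 158 and 80.3 to 752 and 478 CPM (log2 2.36, edgeR adjusted p 0.047). Ccnd1 had 46.0 and 29.6 CPM in wild type and 10.6 and 11.8 CPM in knockout (-1.76, edgeR adjusted p 0.052), and Ccnd2 had 123 and 169 against 47.7 and 63.4 CPM (-1.39, 0.082). The median of these regulators was 1.39 with wild-type library 1 left out and 1.58 with wild-type library 2 left out. Checkpoint and fork repair genes rose in 3 of 15 cases with a median of 0.19 (-0.30 under library totals, where 1 rose), among them Chek1 (2.13) and Exo1 (2.10). Atm, the kinase that signals double-strand breaks, had the lowest value of the list (-3.24, edgeR adjusted p 0.093), with 12.3 and 84.1 CPM in wild type and 2.10 and 8.06 CPM in knockout. Without wild-type library 1 the median of this list was 0.01, and without wild-type library 2 it was 0.7. Without knockout library 1 the list median was 0.35, and without knockout library 2 it was 0.03.

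Of 21 other deoxynucleotide and folate enzymes, 1 rose, with a median of 0.51. That share is near the 5.90% of all genes tested that rose. Mthfd2, of mitochondrial folate metabolism (log2 1.71), and Dtymk, the thymidylate kinase (1.66), had edgeR adjusted p of 0.052 and 0.059. By DESeq2 5 of the 21 rose and Rrm2b fell, where 11.6% of all genes rose and 6.58% fell. Leaving out wild-type library 1, the median of these 21 was 0.9, and leaving out library 2 of that genotype, it was 0.45. In the 18 genes of de novo purine and pyrimidine synthesis, 0 passed by edgeR or limma-voom (3 with an unadjusted p under 0.05, and 1 by DESeq2, Paics). Their median was 0.33, and -0.17 under library totals, with Paics at 1.21, Umps at 0.90 and Ctps at 0.87. Without wild-type library 1 that median was 0.47, and without wild-type library 2 it was 0.35. With the replicate number as a block, 6 rose and Prps2 fell, where 22.4% of all genes rose and 19.7% fell. Mitochondrial DNA replication genes had 0 of 9 passing by edgeR, DESeq2 or limma-voom (0 with an unadjusted p under 0.05) and a median of -0.22, with the polymerase gene Polg at -0.67, Polrmt at -0.73 and Mgme1 at 0.58. Translesion polymerases had 0 of 7 passing by the same 3 tools (0 unadjusted) and a median of -0.21, with Polh at 0.71, Polq at 1.22 and Rev3l at -1.50. The median of these 7 was -0.47 when wild-type library 1 was left out, and it turned to 0.24 when library 2 of that genotype was. With the replicate block, 2 of the 7 rose and Rev3l fell, beside the same 22.4% and 19.7% of all genes. Whether any of these lists differs from the 49 genes was not tested.

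**Figure D5:**
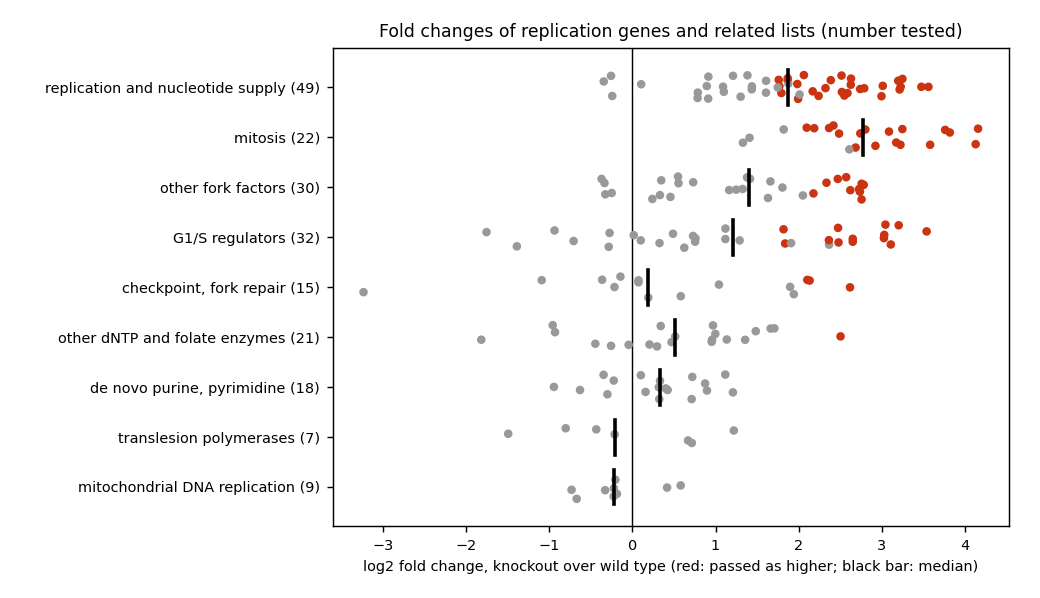
Log2 fold change, knockout over wild type, of each tested gene of the 49 and of 8 related lists, with genes that passed as higher in red and the median of each list as a black bar. Medians run from 2.77 for mitosis through 1.88 for the 49 genes to -0.22 for mitochondrial DNA replication.

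Markers of spleen cell types differed between the genotypes alongside these genes. Granulocyte markers rose in 14 of 14 cases, with a summed level of 917 and 381 CPM in wild type and 29937 and 27897 CPM in knockout. Ngp, S100a9 and S100a8, which encode proteins of neutrophil granules and cytosol, were the most abundant, and Ngp went from 103.1 and 67.1 to 7063 and 7233 CPM. Erythroid markers rose in 7 of 15 cases by edgeR, 14 under library totals, 9 by limma-voom and 15 by DESeq2, with sums of 75041 and 33370 CPM in wild type and 473722 and 154086 CPM in knockout. The haemoglobin genes Hba-a1, Hba-a2 and Hbb-bs made up most of those sums. They did not pass by edgeR (log2 2.34 to 2.65, adjusted p 0.17 to 0.18), but passed as higher by DESeq2 and under library totals.

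Lymphocyte markers were lower in sum. For B cells 0 of 9 markers passed by edgeR or limma-voom (5 with an unadjusted p under 0.05, and 5 lower by DESeq2), with sums of 6486 and 5622 CPM in wild type and 3396 and 2766 CPM in knockout. For T cells 0 of 9 passed by edgeR or limma-voom (6 with an unadjusted p under 0.05, and 1 lower by DESeq2), with sums of 1322 and 812 CPM against 570.5 and 486 CPM. Leaving out wild-type library 1, 4 B cell markers and 1 T cell marker fell, and leaving out library 2 of that genotype, 3 and 7 did. In those fits 14.6% and 4.24% of all genes tested fell, so the single T cell marker is below the overall share. With the replicate number as a block, 7 of 9 B cell and 8 of 9 T cell markers fell, where 19.7% of all genes did.

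Sums for germinal centre and for stem cell markers overlapped between the genotypes. Those for macrophage markers were only narrowly apart, at 1063 CPM in wild-type library 1 and 1078 CPM in knockout library 2. Germinal centre B and plasma cell markers summed to 1256 and 369 CPM in wild type and 883 and 631 CPM in knockout. By edgeR and limma-voom 0 of 8 passed (2 with an unadjusted p under 0.05), and 2 were lower by DESeq2, among them Bcl6. Stem and progenitor markers summed to 68.0 and 85.5 CPM in wild type and 77.2 and 123.8 CPM in knockout. Of the 6 tested, Cd34 rose, except without knockout library 2, and Mecom held 0 counts in both wild-type libraries. Macrophage markers summed to 1063 and 702 CPM in wild type and 1589.8 and 1078 CPM in knockout, and 0 of 8 passed by edgeR, DESeq2 or limma-voom (0 with an unadjusted p under 0.05). The macrophage median log2 fold change was 0.67, with 0.16 under library totals and 0.44 without wild-type library 1. With the replicate number as a block, 4 of these 8 rose, where 22.4% of all genes did. No marker was at 0 in all 4 libraries. The part of these cell types in the rise of the replication genes was not tested.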

How the data were processed

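RNA from splenocytes of UVB-exposed mice was sequenced in 4 libraries, 2 per genotype. The authors deposited expected counts per gene, here all whole numbers. Per the submitters' processing notes, the tools were STAR 2.5.0, RSEM 1.2.25 and SAMtools 1.18 and the build was GRCm38. No source used here gives the annotation release or the strand setting. Of 25509 gene rows, 25251 matched a symbol in GENCODE release 21 for mouse, and 92 spike-in rows held 0 counts and were left out.

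Genes passing filterByExpr (13532) were scaled by TMM and tested with edgeR 4.0.16 (robust quasi-likelihood fit, R 4.3.3, 2 residual degrees of freedom), with Benjamini-Hochberg adjustment over all of them and a threshold of 0.05. Levels per kb use the longest principal transcript. Ratios within libraries used exact permutation tests. Alternatives changed scaling, filter, tool (DESeq2 1.42.0, limma-voom with limma 3.58.1), dispersion, replicate block, libraries and promoter window. Values within a replicate number, and counts without overlapped members, were added after seeing the data.

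The 49 members and all lists were chosen with earlier results of these data known. Values in every library were given, in each step of replication, for the 2 members with the smallest p, the largest p and the smallest fold change. Each related list gave its 3 smallest p and each marker list its highest levels. Others named were chosen after their values were seen. Single values of some genes of the related and marker lists are not reported here.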

Additional observations from a re-analysis of the deposited data

How the results depend on the processing

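Among the 49 replication genes, 0 fell under each of 13 alternatives, and the 28 that rose became 13 to 40 when a library was left out and 20 to 37 under other scaling, filters and tools. Their median of 1.88 became 1.36 with library totals, 2.03 between libraries 1, and 1.75 to 2.09 with a library left out. Over all genes, the 851 that passed became 2158 with library totals, 2466 with DESeq2, 1768 with no filter, and 631 to 4347 with a library left out. The 45 that passed in the related lists became 68 with DESeq2 and 36 to 76 with a library left out. With a library left out, the log2 fold change ranged from -0.55 to 0.13 for Orc3, -0.63 to 0.22 for Orc4, -0.83 to 0.35 for Rfc1 and -0.17 to 0.43 for Pold1, and the sign of each turned without wild-type library 2. Pold1 also turned with library totals (-0.41) and without knockout library 1 (-0.033). The share of member promoters with E2F-type letters was 24.0% with 100 bases before the start, against 1.27% of all windows.

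The labels give replicate numbers but do not say that a number marks a shared batch. Same-numbered libraries share a male or female pattern of transcripts. Deviations of same-numbered libraries correlated at 0.509, a hint from only 2 pairs. With the replicate block, 45 members rose (22.4% of all genes tested), 5705 genes passed in all, and 97 did in the related lists. Members gained included Cdc7, Pold2 and Pold3. Of the marker lists, 15 of 15 erythroid markers rose with the block. With 2 libraries per genotype, a difference that missed the threshold is not shown to be absent.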
